A study of Mus musculus with 11 samples.

Results

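Voltage-gated sodium, calcium and potassium channels and the other potassium channels set the resting potential, the threshold and the shape of the action potential and the calcium entry that follows it. A voltage-gated channel is built from a pore-forming subunit and from auxiliary subunits that alter its gating, its trafficking or its place on the cell surface. In the hippocampus and the neocortex, excitatory neurons, interneurons and glia use different sets of these genes. Dicer is the RNase that cuts microRNA (miRNA) precursors into mature miRNAs, which pair through their seed with sites in the 3′ UTR of messenger RNAs and lower the amount or the translation of those messengers.

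The genes described here are the protein-coding genes of the counts table whose symbols name potassium channel genes (Kcn), sodium channel pore and beta subunits (Scn), calcium channel pore, alpha2delta and beta subunits (Cacna1, Cacna2d and Cacnb) or HCN channels (Hcn), with a mean of at least 1 CPM (a library's count of a gene scaled to a common depth) over the neocortex libraries or over the CA1 libraries. The rule found 130 such symbols, of which 105 passed the level and 25 did not, among 13855 protein-coding genes at that level and 39017 genes in the table. In the neocortex 103 of the 105 reached 1 CPM, and in the CA1 all 105 did. The measured values that chose them were means over all libraries of a tissue, KO and control together. Just inside the level in the neocortex were Scn9a (1.01 CPM), Kcnj14 (1.10 CPM) and Kcne4 (1.53 CPM), and just outside were Cacna1s (0.954 CPM), Kcnj13 (0.891 CPM) and Kcnj5 (0.841 CPM). In the CA1 the nearest inside were Kcnh8 (1.08 CPM), Kcng3 (1.15 CPM) and Kcne4 (1.27 CPM), and the nearest outside were Kcnmb1 (0.758 CPM), Kcnj13 (0.744 CPM) and Kcnrg (0.736 CPM). Among genes that reached 1 CPM in a tissue, 1 in the neocortex (Scn9a) and 1 in the CA1 (Kcnh8) had a KO mean under 1 CPM, and Kcnj14 in the neocortex had a control mean under 1 CPM. All 105 were tested in both tissues.

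The libraries were made from polyadenylated RNA of 2 brain regions, the neocortex and the CA1 field of the hippocampus, of mice aged 13 to 14 weeks in which floxed Dicer alleles were combined with a Camk2a-Cre transgene (KO), and from control mice whose genotype the labels do not give. For the neocortex there were 3 controls, animals D5129, D5134 and D5135, and 3 KO animals, D5130, D5132 and D5133. For the CA1 the 3 controls were D5134, D5135 and D5138, and the 2 KO animals were D5130 and D5133. D5138 was female and the others male, and 11 libraries came from 7 animals and 4 animals gave both tissues. The Camk2a promoter drives Cre in forebrain excitatory neurons, while the RNA came from whole tissue. A lower level can therefore be fewer cells of a type or less RNA per cell, and the 2 cannot be told apart. Each library is from 1 animal, and p-values measure the spread between these animals.

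The depth, as the sum of gene counts, ran from 43144097 to 58329441 in the neocortex libraries and from 24806581 to 35684618 in the CA1 libraries. Fibcd1, a marker of CA1 pyramidal neurons, averaged 161 CPM in CA1 controls and 9.97 CPM in neocortex controls. Dicer1 did not check the labels, since its count covers the whole gene and KO and control differed by -0.04 on the log2 scale (SE 0.06, adjusted p = 0.797 in edgeR) for neocortex and by -0.003 (SE 0.07, adjusted p = 0.988) for CA1. By the profile of the ERCC spike-in RNAs the neocortex libraries fell into 2 sets, 1 of D5129, D5130 and D5132 and 1 of D5133, D5134 and D5135. The CA1 libraries held no spike-in reads. D5134 stood apart for the channel genes among neocortex controls: it had the lowest control level for 56 of the 105, against 36.4% of all genes at 1 CPM or more.

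The level of each gene was first compared per kilobase of its exons, as CPM per kb. Kcnab2, a beta subunit of Kv1 channels, stood among the highest in both tissues, at 102 ± 4.21 CPM per kb (SD, n = 3) in neocortex controls and 148 ± 10.5 in CA1 controls. Below it came Cacnb3, a calcium channel beta subunit, in the neocortex (91.4 ± 3.85 CPM per kb) and Scn2b in the CA1 (70.1 ± 3.55 CPM per kb). Kcnj10, the main inward rectifier of astrocytes, and Kcnj4 followed in the neocortex at 72.1 ± 1.75 and 66.0 ± 2.11 CPM per kb, and Cacnb3 and Kcnip2 in the CA1 at 57.8 ± 2.36 and 54.9 ± 1.76 CPM per kb. Kcnj10 and Kcnj4 were apart by more than their SDs, as were Kcnab2 and the gene named below it in each tissue, while the mean ± SD ranges of Cacnb3 and Kcnip2 overlapped in the CA1. The lowest levels were those of Kcnh8 in the neocortex (0.0703 CPM per kb) and Cacna2d4 in the CA1 (0.231 CPM per kb). In both tissues the highest by family was Kcna1 of the Kv1 genes, Kcnd2 of Kv4 and Kcnh3 of Kv10 to Kv12. Among the other families these were Kcnf1 (silent Kv subunits), Kcnj10, Kcnk1 (two-pore channels), Kcnmb4 (calcium- and sodium-activated channels), Scn8a, Cacna2d3 and Hcn2. The highest calcium channel pore gene was Cacna1a in the neocortex and Cacna1h in the CA1.

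Between tissues, 85 of the 105 genes were within 2-fold in controls, 10 were more than 2-fold higher in the CA1 and 10 more than 2-fold lower, as ratios of mean CPM. The largest ratios were those of Kcng2 (20.7 against 3.06 CPM, 6.77-fold higher in the CA1) and Kcnh4 (33.8 against 5.33 CPM, 6.35-fold higher in the neocortex). Scn3b was 3.68-fold and Cacna1h 3.43-fold higher in the CA1, and Scn4b was 3.64-fold higher in the neocortex. Library kit and tissue cannot be told apart here, so these ratios were not tested.

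In the neocortex, 3 of the 105 genes rose in the KO and 6 fell, and 96 did not pass an edgeR adjusted p of 0.05. The 3 that rose (Cacna1a, Cacna1d and Cacna1g) all encode calcium channel pores. The 6 that fell were Kcnip4, Kcnab2, Kcnq5, Kcnk4, Scn4b and Cacnb3, of which all but Kcnq5 and Kcnk4 encode auxiliary subunits. The share that rose was 2.86% and the share that fell 5.71%, against 1.51% and 1.2% of all genes tested and 1.71% and 1.41% of genes at 1 CPM or more. KO and control libraries did not overlap for 19 genes that were higher (18.1%) and 16 that were lower (15.2%), against 12.5% and 13.6% of genes at 1 CPM or more. The median log2 fold change of the 105 was 0.04, beside 0.002 for all genes tested, with 62 above 0 and 43 below. In the same libraries all 6 activated microglia markers rose (sums of 40.9 to 41.6 CPM in controls and 60.4 to 78.7 CPM in the KO). Of the CA1 and CA3 marker lists, Wfs1 (log2 fold change -0.58, adjusted p = 0.0162 by edgeR) and Cpne4 (-0.30, adjusted p = 0.0478) fell. The others of these lists did not pass, with Pou3f1 at -0.32, Fibcd1 at 0.11, Homer3 at 0.25 and Iyd, under 1 CPM, at 0.54. The 6 excitatory neuron markers did not pass, with sums of 4070 to 4260 CPM in controls and 3796 to 3883 CPM in the KO. Sums of the 7 inhibitory neuron markers, none past the threshold, were 1166 to 1187 CPM and 1228 to 1276 CPM. The part of these markers in the channel results was not tested.

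In the CA1, 3 genes rose (Cacna1g, Kcnc4 and Scn7a), 11 fell and 91 did not pass. Among those that fell were Kcnd2, Kcnh5, Kcnh7, Kcns1, Kcns2, Kcnab1, Kcnip4, Scn1a, Scn3b and Cacnb4. The share that rose was 2.86% and the share that fell 10.5%, against 2.47% and 1.41% of all genes tested and 2.76% and 1.63% of genes at 1 CPM or more. Libraries did not overlap for 14 genes that were higher (13.3%) and 32 that were lower (30.5%), against 17.4% and 17.5%. The median log2 fold change was -0.06, beside -0.0004 for all genes tested, with 40 above 0 and 65 below. Kcnip4 and Cacna1g passed in both tissues, and 21 genes passed in at least 1.

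**Figure D1:**
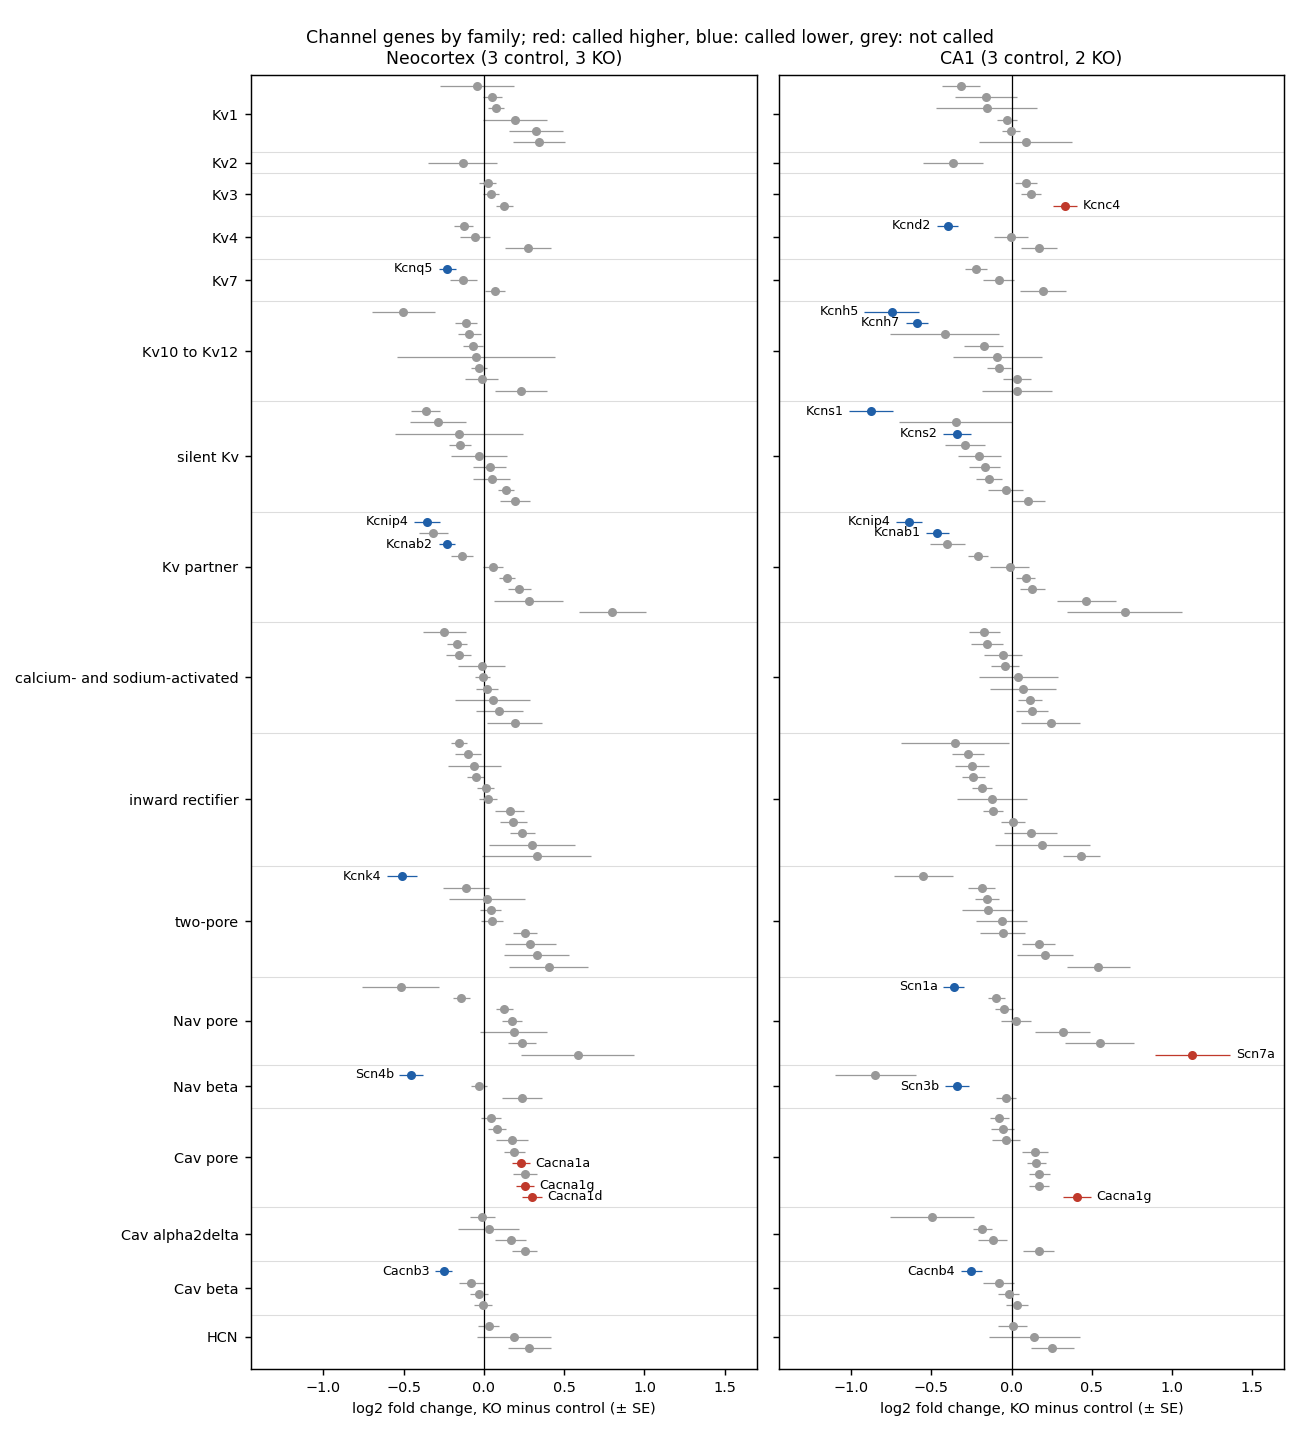
Log2 fold change (KO minus control) of the channel genes reported here, grouped by family, in the neocortex (left) and the CA1 (right). Points are fitted values, bars are SEs, and red and blue points with names passed the adjusted threshold. The named points in the neocortex lie between -0.51 and 0.30, and in the CA1 between -0.88 and 1.13.

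The share of all gene reads that fell on the 105 genes was 1.00% ± 0.020 (SD, n = 3) in neocortex controls and 1.00% ± 0.005 (SD, n = 3) in neocortex KO libraries (exact permutation test, two-sided, p = 1). In the CA1 it was 0.941%, 0.953% and 0.950% in controls D5134, D5135 and D5138 and 0.925% and 0.910% in KO libraries D5130 and D5133. The CA1 groups did not overlap, and the exact two-sided permutation p was 0.1, the smallest that 3 against 2 libraries allow.

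Calcium channel pores (Cacna1) conduct the calcium current of synapses, dendrites and pacemaking. In the neocortex all 8 genes had a log2 fold change above 0 (median 0.21), 3 rose, and the libraries of 6 did not overlap. Of neocortex genes at 1 CPM or more, 1.71% rose and 12.5% were higher with no overlap. D5134 was the lowest control for 6 of the 8, and without it 1 of the 3 still passed (Cacna1d), while with the spike-in set as a term 0 did. Cacna1d, the pore of a low-threshold L-type channel, was at 56.1, 52.8 and 60.7 CPM in the controls (D5129, D5134, D5135 in turn) and 69.7, 70.3 and 68.5 CPM in the KO (D5130, D5132, D5133). Each KO library was above each control, and the log2 fold change was 0.30 (SE 0.06, adjusted p = 0.0287 by edgeR). Cacna1a, the P/Q-type pore of transmitter release, was at 211, 202 and 194 CPM in these controls and 223, 247 and 243 CPM in these KO libraries, again with no overlap, and rose by 0.23 (SE 0.06, adjusted p = 0.0478 by edgeR). Cacna1g, a T-type pore that opens near rest, was at 130, 125 and 132 CPM in controls and 145, 165 and 152 CPM in the KO, and rose by 0.26 (SE 0.06, adjusted p = 0.0376 by edgeR).

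In the CA1, Cacna1g was at 95.1, 92.4 and 75.2 CPM in controls (D5134, D5135, D5138) against 114 and 119 CPM in KO libraries D5130 and D5133. It rose by 0.41 (SE 0.09, adjusted p = 0.0245 by edgeR), and the lowest control was the female D5138, without which the value was 0.31 and did not pass (adjusted p = 0.202). The other 7 pores did not pass in the CA1. Of the 8, 4 were higher with no overlap, against 17.4% of genes at 1 CPM or more. Cacna1c, an L-type pore, was higher with no overlap in both tissues, by 0.26 (SE 0.08, adjusted p = 0.102 by edgeR) in the neocortex and 0.17 (SE 0.07, adjusted p = 0.184) in the CA1. Cacna1a had a CA1 log2 fold change of -0.08 (SE 0.06, adjusted p = 0.573 by edgeR), with both KO libraries below the 3 controls.

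For each of the 3 pores that rose, the 3′ UTR held perfect 8-base matches to brain miRNAs, shown here as sequence. Of the 6 genes that fell in the neocortex, 5 held at least 1 match too. Such a match is common: 62.2% of expressed neocortex genes and 77.1% of the 105 hold at least 1 of the sites searched. In the lines below the gene's sense strand runs 5′ to 3′, and capitals mark the 8 bases that pair with miRNA bases 2 to 8 and end with an A. The Cacna1a window is at chr8:84640174-84640197 (plus strand), the Cacna1d window at chr14:30041914-30041937 (minus strand), and the Cacna1g windows at chr11:94408639-94408662 and chr11:94408784-94408807 (minus strand), all in GRCm38 and all in 3′ UTR exons of GENCODE M21.
Cacna1a, miR-27 site: ggcttgggACTGTGAAatattgca
Cacna1d, miR-135 site: cctcaaggAAGCCATAaacctggt
Cacna1g, miR-218 site: ttcttgtaAAGCACAAgccggggg
Cacna1g, miR-338 site: tctagtatATGCTGGAtgtacgac
The mature mouse miRNAs of these families, from RefSeq on GRCm38.p6, are given next with their seeds (bases 2 to 8) in capitals.
miR-27b-3p: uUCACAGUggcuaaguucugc
miR-135a-5p: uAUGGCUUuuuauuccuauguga
miR-218-5p: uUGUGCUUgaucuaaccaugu
miR-338-3p: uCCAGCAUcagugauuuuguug
Among expressed genes of the neocortex with an annotated 3′ UTR, 6.64% held the miR-27 site ACTGTGAA, 3.61% the miR-135 site AAGCCATA, 4.75% the miR-218 site AAGCACAA and 3.82% the miR-338 site ATGCTGGA. The neocortex median log2 fold change of channel genes with and without the site was 0.024 and 0.046 for miR-27 and 0.030 and 0.044 for miR-135. For miR-218 it was 0.051 and 0.043, and for miR-338 0.036 and 0.044. The sites were held by 9 (miR-27), 11 (miR-135), 13 (miR-218) and 7 (miR-338) channel genes. Over expressed neocortex genes the medians with and without the site were 0.038 and -0.0004 for miR-27 and 0.027 and 0.001 for miR-135. For miR-218 these were 0.034 and 0.0004, and for miR-338 0.012 and 0.001. A match is a description of the sequence and not a measured site of binding.

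Of the auxiliary calcium channel subunits, 1 gene fell in each tissue, not the same one, and none rose. Cacnb3, a cytosolic beta subunit, was at 350, 380 and 370 CPM in neocortex controls and 302, 322 and 300 CPM in KO libraries, with no overlap. It fell by 0.25 on the log2 scale (SE 0.05, adjusted p = 0.0251 by edgeR). The other neocortex beta subunit genes were near 0, with Cacnb1 at -0.005 (SE 0.05), Cacnb4 at -0.03 (SE 0.06) and Cacnb2 at -0.08 (SE 0.08). In the CA1, Cacnb3 was at 0.03 (SE 0.07, adjusted p = 0.866). There Cacnb4 fell by 0.25 (SE 0.07, adjusted p = 0.0485 by edgeR), from 203, 180 and 188 CPM in controls to 155 and 164 CPM in the KO. Of the exon bases of Cacnb4, 15.99% overlap A430018G15Rik on the opposite strand, and the CA1 kit did not keep strand. No alpha2delta gene passed in either tissue. Cacna2d2 was higher with no overlap in both, by 0.25 (SE 0.08, adjusted p = 0.106 by edgeR) and 0.17 (SE 0.10, adjusted p = 0.410).

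Sodium channel pores carry the upstroke of the action potential. Scn1a, the main pore of fast-spiking interneurons, was at 145, 159 and 151 CPM in CA1 controls and 116 and 120 CPM in KO libraries. It fell by 0.36 (SE 0.06, adjusted p = 0.0067 by edgeR), with no overlap, and in the neocortex it was at -0.14 (SE 0.05, adjusted p = 0.190 by edgeR), again with no overlap. Leaving out CA1 KO library D5130 gave an adjusted p of 0.0507. Scn8a, the highest pore per kb, was higher with no overlap in the neocortex (0.13, SE 0.05, adjusted p = 0.221 by edgeR) and lower with no overlap in the CA1 (-0.10, SE 0.05, adjusted p = 0.396). The 7 inhibitory neuron markers did not pass in either tissue, and their summed level was 803 to 874 CPM in CA1 controls and 837 to 856 CPM in CA1 KO libraries.

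Scn7a, a sodium-sensing channel gene of glia and of the sensors of body salt, was the largest change among the 105 genes that passed. In the CA1 it was at 1.97, 3.09 and 1.85 CPM in controls (D5134, D5135, D5138) against 4.44 and 5.70 CPM in KO libraries D5130 and D5133. The groups did not overlap, and the log2 fold change was 1.13 (SE 0.24, adjusted p = 0.0169 by edgeR), though without D5133 or without D5138 it did not pass. In the neocortex it was at 3.82, 3.23 and 5.10 CPM in controls and 4.56, 5.78 and 3.52 CPM in the KO, and the groups overlapped. Its 3′ UTR holds 1 of the matches searched, at chr2:66673474-66673497 (minus strand, GRCm38), for miR-132, whose site is held by 2.88% of expressed neocortex genes.
Scn7a, miR-132 site: ttctgaatGACTGTTAcagaatat
miR-132-3p: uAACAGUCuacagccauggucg
Markers of other cells moved in the same CA1 libraries. Of 6 mural cell markers, 4 rose, and their sum was 170 to 189 CPM in controls and 244 to 247 CPM in the KO. Of 4 meningeal markers, 1 rose (Igf2), and their sum was 72.5 to 75.2 CPM in controls and 161 to 178 CPM in the KO. Of 6 activated microglia markers, 5 rose (sums of 54.2 to 71.1 CPM and 108 to 129 CPM). Of 6 astrocyte markers, 1 rose (Aqp4), with sums of 1774 to 1855 CPM and 2041 to 2108 CPM. None of these markers was at 0 in all CA1 libraries, and their part in the Scn7a result was not tested.

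Sodium channel beta subunits set the gating and the surface level of the pores. In the CA1 all 4 genes were below 0 (median -0.32). Scn3b was at 140, 150 and 161 CPM in CA1 controls and 112 and 126 CPM in the KO, and fell by 0.34 (SE 0.08, adjusted p = 0.0232 by edgeR), while in the neocortex it was at 0.24 (SE 0.12, adjusted p = 0.365) with overlap.

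Scn4b, the beta subunit linked to the resurgent sodium current, was at 135, 145 and 139 CPM in neocortex controls (D5129, D5134, D5135) against 114, 91.7 and 99.6 CPM in KO libraries D5130, D5132, D5133. It fell by 0.45 (SE 0.07, adjusted p = 0.0098 by edgeR), and each KO library was below each control. In the CA1 it was at 33.5, 35.0 and 46.4 CPM in controls and 26.0 and 16.3 CPM in the KO, a log2 fold change of -0.85 (SE 0.25, adjusted p = 0.187 by edgeR), with no overlap. Scn4b is strong in the striatum, and striatal markers differed between the same neocortex libraries: 1 of 5 fell (Ppp1r1b, means of 71.3 and 58.8 CPM), and their sum was 92.2 to 110 CPM in controls and 80.4 to 83.7 CPM in the KO. Drd1, Drd2 and Adora2a overlapped between the groups. In the CA1 0 of the 5 passed, with Ppp1r1b at -0.14 and Drd1 at 0.006. None of the 5 was at 0 in all libraries, and their part in the Scn4b result was not tested.

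Of the 9 neocortex calls, none passed in all 6 fits that left out 1 library, and without KO library D5133 none of the 9 passed. Kcnip4 and Cacna1a passed in 0 of the 6 fits. In edgeR with the spike-in set as a term, Scn4b (adjusted p = 0.0364) and Kcnk4 (adjusted p = 0.0473) passed. The groups of all 9 did not overlap, which fixes their direction within a set, and each set has 1 library in 1 group. Within the sets the log2 fold change of Scn4b was -0.39 and -0.50, of Kcnk4 -0.40 and -0.64, of Cacnb3 -0.17 and -0.31, of Kcnip4 -0.27 and -0.36, of Kcnab2 -0.25 and -0.23 and of Kcnq5 -0.26 and -0.24. For the pores they were 0.15 and 0.30 for Cacna1a, 0.32 and 0.28 for Cacna1d and 0.25 and 0.25 for Cacna1g.

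**Figure D2:**
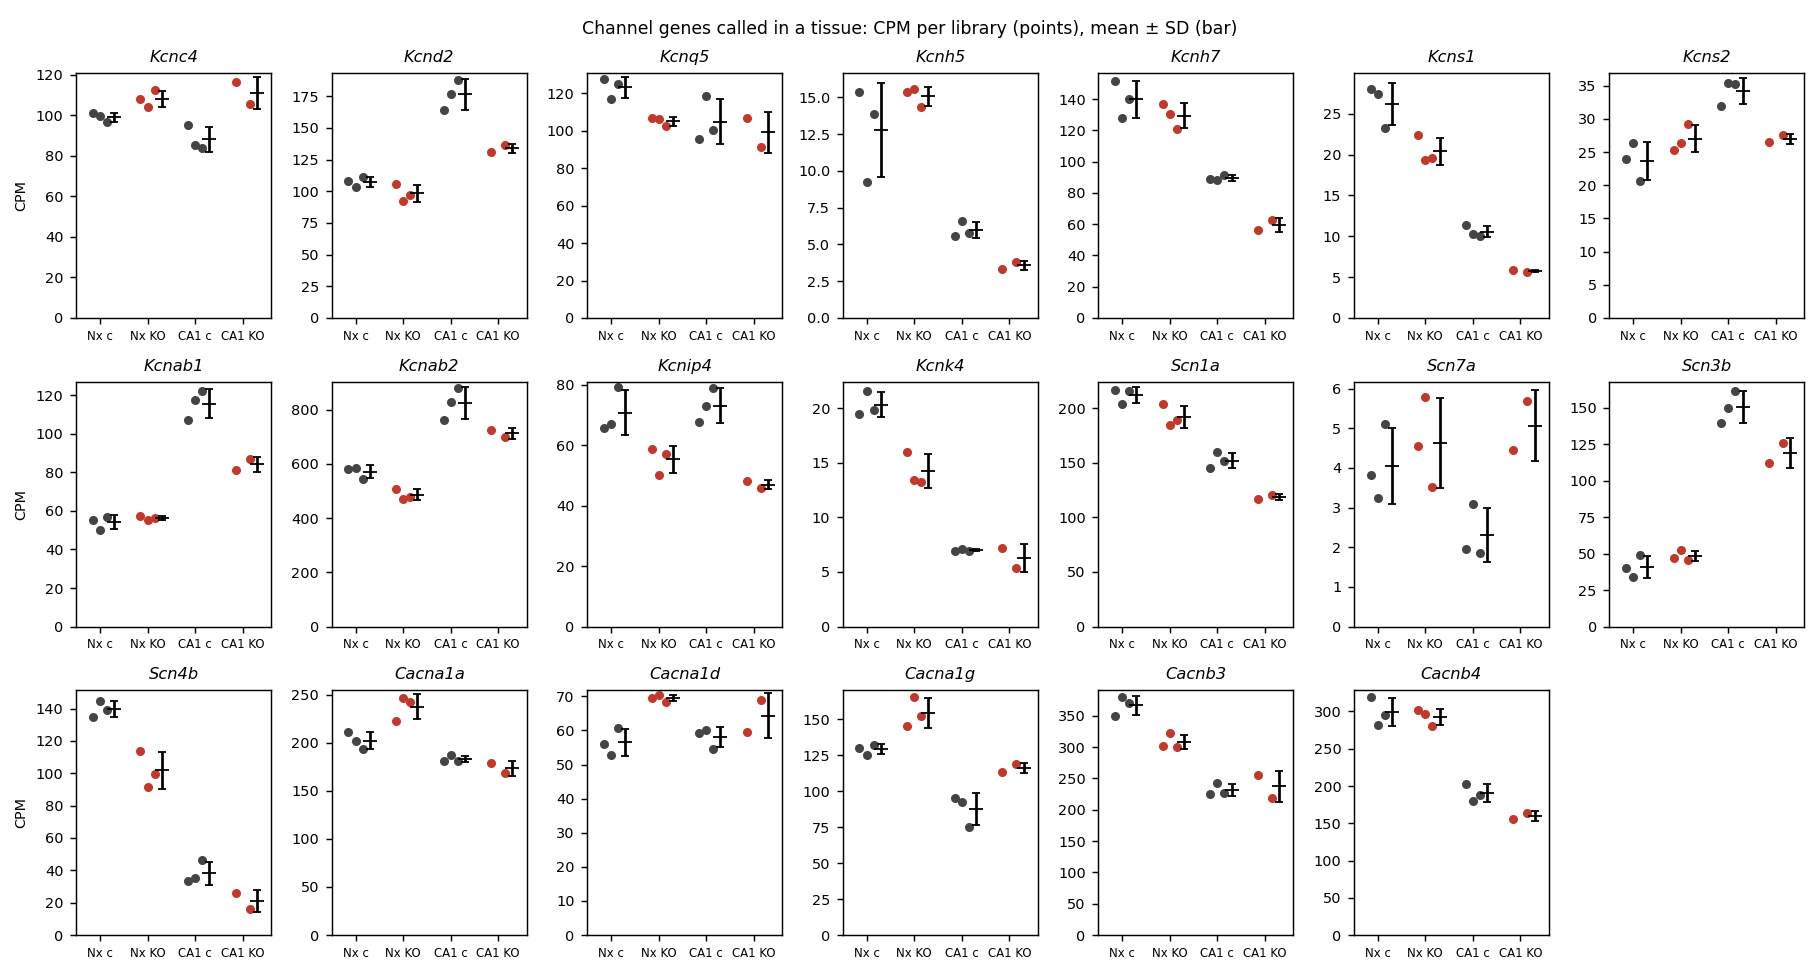
CPM of channel genes that passed in at least 1 tissue, by library. Nx c and Nx KO are neocortex control and KO, CA1 c and CA1 KO the same for the CA1, points are libraries, and the bar beside them is the mean ± SD. Kcnip4 KO points lie below all controls in both tissues (50.3 to 58.8 CPM against 65.8 to 79.4 CPM in the neocortex, 45.9 and 48.1 CPM against 67.6 to 78.9 CPM in the CA1).

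Of the potassium channel pores, Kv4 channels (Kcnd) carry the fast A-type current of dendrites, and KChIP proteins (Kcnip) are their calcium-binding partners. Kcnd2, the main Kv4 pore of CA1 pyramidal dendrites, was at 164, 177 and 188 CPM in CA1 controls and 131 and 137 CPM in the KO. It fell by 0.40 (SE 0.07, adjusted p = 0.00524 by edgeR) with no overlap, and in the neocortex it was at -0.13 (SE 0.06, adjusted p = 0.300) with overlap. Kcnip4 was at 67.6, 72.9 and 78.9 CPM in CA1 controls (D5134, D5135, D5138) against 48.1 and 45.9 CPM in KO libraries D5130 and D5133, and fell by 0.64 (SE 0.08, adjusted p = 0.000665 by edgeR).

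In the neocortex Kcnip4 was at 65.8, 67.1 and 79.4 CPM in controls and 58.8, 50.3 and 57.0 CPM in the KO, and fell by 0.35 (SE 0.08, adjusted p = 0.0446 by edgeR). It is the channel gene that fell in both tissues, and the groups did not overlap in either. Its neocortex call was lost in each of the 6 fits that left out 1 library. With the spike-in set as a term it was lost too (adjusted p = 0.119 by edgeR). The other KChIP genes did not pass: Kcnip1 was at 0.22 in the neocortex and -0.01 in the CA1, Kcnip2 at -0.14 and 0.09, and Kcnip3 at 0.14 and 0.13. The 3′ UTR of Kcnip4 also holds 2 matches, shown because the gene fell in both tissues. They are at chr5:48390863-48390886 for miR-23 and chr5:48390152-48390175 for miR-30 (minus strand, GRCm38).
Kcnip4, miR-23 site: aagaggcaAATGTGAAcgactaca
Kcnip4, miR-30 site: accaaggaTGTTTACAgacttgcc
miR-23a-3p: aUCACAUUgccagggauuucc
miR-30a-5p: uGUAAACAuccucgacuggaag
Of expressed neocortex genes with an annotated 3′ UTR, 7.37% held the miR-23 site and 8.70% the miR-30 site.

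Kv beta subunits (Kcnab) bind Kv1 channels and speed their inactivation or carry them to the axon. Kcnab1 was at 107.4, 117 and 122 CPM in CA1 controls and 81.3 and 86.9 CPM in KO libraries, and fell by 0.46 (SE 0.07, adjusted p = 0.00322 by edgeR). In the neocortex it was at 55.5, 50.1 and 56.9 CPM in controls and 57.5, 55.2 and 56.2 CPM in the KO, a log2 fold change of 0.06 (SE 0.06, adjusted p = 0.717). The CA1 groups were apart and the neocortex groups overlapped. Kcnab2 fell by 0.23 (SE 0.05, adjusted p = 0.0346 by edgeR) in the neocortex, from 583, 586 and 544 CPM to 509, 471 and 478 CPM. In the CA1 it was at -0.21 (SE 0.06, adjusted p = 0.0757) with no overlap. Kcnab3 was at -0.32 (SE 0.09, adjusted p = 0.098 by edgeR) and -0.40 (SE 0.11, adjusted p = 0.057). Of the Kv1 pores themselves, none of 6 passed in either tissue, and Kcna1, the highest per kb, was at 0.08 and -0.00.

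Kv3 channels (Kcnc) let neurons fire fast. In the CA1 all 4 were above 0 (median 0.14). Higher with no overlap were 3, against 17.4% of genes at 1 CPM or more. Of the 4, 1 rose, against 2.76% of those genes. That gene, Kcnc4, was at 95.1, 85.5 and 83.8 CPM in CA1 controls and 117 and 105 CPM in KO libraries, a rise of 0.33 (SE 0.07, adjusted p = 0.0229 by edgeR). In the neocortex it was at 101, 99.4 and 96.7 CPM in controls and 108, 104 and 112 CPM in the KO, also with no overlap, and did not pass (0.13, SE 0.05, adjusted p = 0.226). Its 3′ UTR holds a match for miR-19 at chr3:107439224-107439247 and one for miR-92/25 at chr3:107438514-107438537 (minus strand, GRCm38), held by 6.08% and 2.96% of expressed neocortex genes.
Kcnc4, miR-19 site: tatccttgTTTGCACAagactggt
Kcnc4, miR-92/25 site: gaggatgcGTGCAATAgcagaggc
miR-19b-3p: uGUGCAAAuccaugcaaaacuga
miR-92a-3p: uAUUGCACuugucccggccug

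The Kv10 to Kv12 genes (Kcnh) encode the ether-a-go-go, erg and elk channels. In the CA1, 2 of 8 fell, against 1.63% of genes at 1 CPM or more. Kcnh7, an erg channel, was at 88.8, 88.0 and 91.5 CPM in controls (D5134, D5135, D5138) against 56.4 and 62.7 CPM in the KO, and fell by 0.59 (SE 0.07, adjusted p = 0.000503 by edgeR). Kcnh5, an ether-a-go-go channel, was at 5.60, 6.58 and 5.74 CPM in controls and 3.36 and 3.79 CPM in the KO, and fell by 0.75 (SE 0.17, adjusted p = 0.0263 by edgeR). Neither passed in the neocortex, where Kcnh7 was at -0.11 (SE 0.07, adjusted p = 0.429 by edgeR) and Kcnh5 at 0.23 (SE 0.16, adjusted p = 0.513). Gca lies on the opposite strand over 4.57% of the Kcnh7 exon bases, and its reads summed to 9712 over the 11 libraries, beside 53183 for Kcnh7. Opposite-strand overlaps were also present for other genes that passed in a tissue. Among them were Kcnip4 (4.63% of exon bases with 5730480H06Rik, 2.73% with Gm20700), Cacna1a (3.81% with Gm16183) and Cacna1d (4.67% with Chdh).

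Silent Kv subunits (Kcnf, Kcng, Kcns, Kcnv) form no channel alone and modify Kv2 pores. In the CA1 8 of the 9 were below 0 (median -0.20), 5 were lower with no overlap, and 2 fell. Of CA1 genes at 1 CPM or more, 17.5% were lower with no overlap and 1.63% fell. Kcns1 was at 11.4, 10.2 and 10.1 CPM in controls and 5.82 and 5.66 CPM in the KO, a fall of 0.88 (SE 0.14, adjusted p = 0.00332 by edgeR). In the neocortex its controls were at 28.0, 27.4 and 23.3 CPM and its KO libraries at 22.3, 19.3 and 19.5 CPM (-0.36, SE 0.09, adjusted p = 0.0561 by edgeR), so the groups were apart in both tissues. Kcns2 was at 31.9, 35.4 and 35.2 CPM in CA1 controls and 26.5 and 27.5 CPM in the KO, and fell by 0.34 (SE 0.09, adjusted p = 0.0436 by edgeR). In the neocortex Kcns2 was at 0.19 (SE 0.09, adjusted p = 0.315) with overlap. Kcnb2, a Kv2 pore, was at -0.13 in the neocortex and -0.36 in the CA1 and did not pass in either.

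Of the CA1 genes that fell, Kcnab1, Kcnip4, Kcnh7, Kcnd2 and Kcns1 passed in each of the 5 fits that left out 1 library. Kcns2 and Kcnh5 were lost without D5130, D5133, D5135 or D5138, and Cacnb4 without D5130, D5133, D5134 or D5138. Kcnc4 was lost without D5130, D5135 or D5138, Cacna1g without D5130, D5133 or D5138 and Scn3b without D5130 or D5138. Markers of CA1 pyramidal neurons were lower in the same KO libraries: Wfs1 and Pou3f1 of 3 fell, and the sum of the 3 was 381 to 441 CPM in controls and 251 to 261 CPM in the KO. Most of that difference was Wfs1 (means of 178 and 74.1 CPM), which also fell in the neocortex, and Fibcd1 was at -0.19 (adjusted p = 0.194 by edgeR). All 5 oligodendrocyte markers fell, with sums of 3077 to 3751 CPM and 2549 to 2561 CPM. Of 6 excitatory neuron markers 1 fell (Neurod6), and their sum was 4286 to 4867 CPM in controls and 4055 to 4264 CPM in the KO. No marker of these lists was at 0 in all libraries, and their part in the channel results was not tested.

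Kv7 channels (Kcnq) carry the M-current that damps repeated firing. Kcnq5 was at 128, 117 and 125 CPM in neocortex controls and 106.9, 106.2 and 102 CPM in the KO, a fall of 0.23 (SE 0.05, adjusted p = 0.0418 by edgeR) with no overlap. In the CA1 it was at -0.08 (SE 0.10, adjusted p = 0.746). Kcnq3 was at 0.07 and -0.22 and did not pass in either tissue.

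Two-pore channels (Kcnk) carry the background potassium current. Kcnk4, the mechanosensitive TRAAK channel, was at 19.5, 21.6 and 19.9 CPM in neocortex controls and 16.04, 13.4 and 13.2 CPM in KO libraries. It fell by 0.51 (SE 0.09, adjusted p = 0.0157 by edgeR) with no overlap, and in the CA1 it was at -0.15 (SE 0.16, adjusted p = 0.706). Kcnk4 shares 13.1% of its exon bases with Catsperz on the same strand, whose reads summed to 2597 over the 11 libraries, beside 6263 for Kcnk4. How the counting treated the shared bases is not given in the sources used here, so the value is uncertain. The other 8 two-pore genes did not pass in either tissue, and Kcnk1, the highest per kb, was at 0.05 and -0.15.

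None of the 11 inward rectifier genes (Kcnj), 9 calcium- and sodium-activated genes or 4 HCN genes passed in either tissue. Kcnj9, a G protein-gated rectifier subunit, was lower with no overlap in both, at 206, 213 and 205 CPM against 192, 188 and 180 CPM in the neocortex and 121, 110 and 121 CPM against 105.6 and 93.5 CPM in the CA1. Its log2 fold changes were -0.15 (SE 0.05, adjusted p = 0.115 by edgeR) and -0.24 (SE 0.07, adjusted p = 0.0948). Kcnj16, a glial partner of Kcnj10, was at 0.16 in the neocortex and 0.44 (SE 0.12, adjusted p = 0.054 by edgeR) in the CA1, where 1 of 6 astrocyte markers rose (Aqp4). The sum of the 6 was 1774 to 1855 CPM in CA1 controls and 2041 to 2108 CPM in CA1 KO libraries, and their part was not tested. Kcnj10 itself was at 0.03 and -0.11. Kcnn1, a small-conductance calcium-activated channel, was lower with no overlap in both tissues, by -0.16 and -0.15. Hcn2, the highest HCN gene per kb, was at 0.03 and 0.01. Kcne1l, a single-span Kv partner, was higher with no overlap in both, by 0.80 (SE 0.21, adjusted p = 0.0627 by edgeR) and 0.46 (SE 0.18, adjusted p = 0.198), from levels under 4 CPM in controls.

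Of 43 genes that bind, place or regulate these channels and lie outside the rule, 41 were tested in the neocortex and 42 in the CA1. In the neocortex 1 rose and 1 fell (2.44% each, against 1.51% and 1.2% of all genes tested), with a median log2 fold change of 0.02. Unc79, a subunit of the sodium leak channel complex, rose by 0.25 (SE 0.05, adjusted p = 0.0305 by edgeR), and Fgf13, a cytosolic partner of sodium channels, fell by 0.32 (SE 0.06, adjusted p = 0.0145). In the CA1 0 rose and 4 fell (9.52%, against 1.41% of all genes tested, while 2.47% of all genes rose), with a median of -0.09. Pex5l, the TRIP8b partner that sorts HCN channels to dendrites, fell by 0.41 (SE 0.07, adjusted p = 0.0035 by edgeR). Tspan13, a calcium channel-binding tetraspanin, fell by 0.37 (SE 0.06, adjusted p = 0.00332 by edgeR), Cntnap2, which clusters Kv1 channels beside the node, by 0.31 (SE 0.07, adjusted p = 0.0308), and Fam155a, a sodium leak channel subunit, by 0.27 (SE 0.07, adjusted p = 0.0364). The Kv4 partners Dpp6 and Dpp10 did not pass in either tissue, nor did the ankyrins Ank2 and Ank3.

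Whether the KO effect differed between the tissues was tested as an interaction over all 11 libraries. Library kit went with tissue, so a difference between tissues and a difference between kits cannot be told apart. None of the 105 genes passed (edgeR, 0 of 105, against 0.0935% of all genes tested). At an unadjusted p under 0.05 there were 25 of the 105, 19 of them lower in the CA1, against 9.51% of all genes tested. DESeq2 called 7 of the 105, and the share of all genes it called is not given here. With animal as a block, which pairs the tissues of the 4 shared animals and leaves 2 residual degrees of freedom, 5 passed, against 0.592% of all genes. All 5 were lower in the CA1 relative to the neocortex.

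These 5 were Kcnh5 (difference in log2 fold change -1.15, SE 0.21, adjusted p by edgeR = 0.017 with the block and 0.172 without), Kcna2 (-0.76, SE 0.14, 0.0173 and 0.637), Kcnh7 (-0.52, SE 0.11, 0.0433 and 0.0959), Kcnab1 (-0.51, SE 0.09, 0.0189 and 0.0559) and Cacna2d1 (-0.48, SE 0.10, 0.0486 and 0.609). For Kcna2, a Kv1 pore, neocortex controls D5129, D5134 and D5135 were at 36.6, 20.9 and 33.8 CPM, for Cacna2d1, an alpha2delta subunit, at 72.9, 54.9 and 69.9 CPM, and for Kcnh5 at 15.3, 9.22 and 13.8 CPM. D5134 was the low library in each. Without it the blocked differences were -1.001 for Kcnh5, -0.59 for Kcna2, -0.46 for Kcnh7, -0.49 for Kcnab1 and -0.41 for Cacna2d1, with adjusted p-values of 0.0576, 0.0787, 0.141, 0.0576 and 0.167 in edgeR. Kcns2 then passed in their place (-0.80, SE 0.15, adjusted p = 0.0167 by edgeR). It was the 1 channel gene that passed in this fit, against 0.605% of all genes, and the fit leaves 1 residual degree of freedom.

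For 13 genes KO and control libraries did not overlap in both tissues with the same direction, 5 higher (Cacna1c, Cacna1g, Cacna2d2, Kcnc4 and Kcne1l) and 8 lower (among them Kcnab2, Kcnip4, Kcnj9, Kcnn1, Kcns1, Scn1a and Scn4b). These are 4.76% and 7.62% of the 105, against 4.81% and 4.65% of genes at 1 CPM or more in a tissue. For 5 (4.76%, against 1.33% of these genes) they did not overlap in opposite directions: Cacna1a, Kcnj6, Scn8a and Kcnv1 were higher in the neocortex KO and lower in the CA1 KO, and Scn9a the reverse. The interaction did not pass for these 5 (adjusted p = 0.177, 0.162, 0.330, 0.304 and 0.304 by edgeR for Cacna1a, Kcnj6, Scn8a, Kcnv1 and Scn9a). The animals of the 2 tissues are partly the same, so the tissues are not independent groups.

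**Figure D3:**
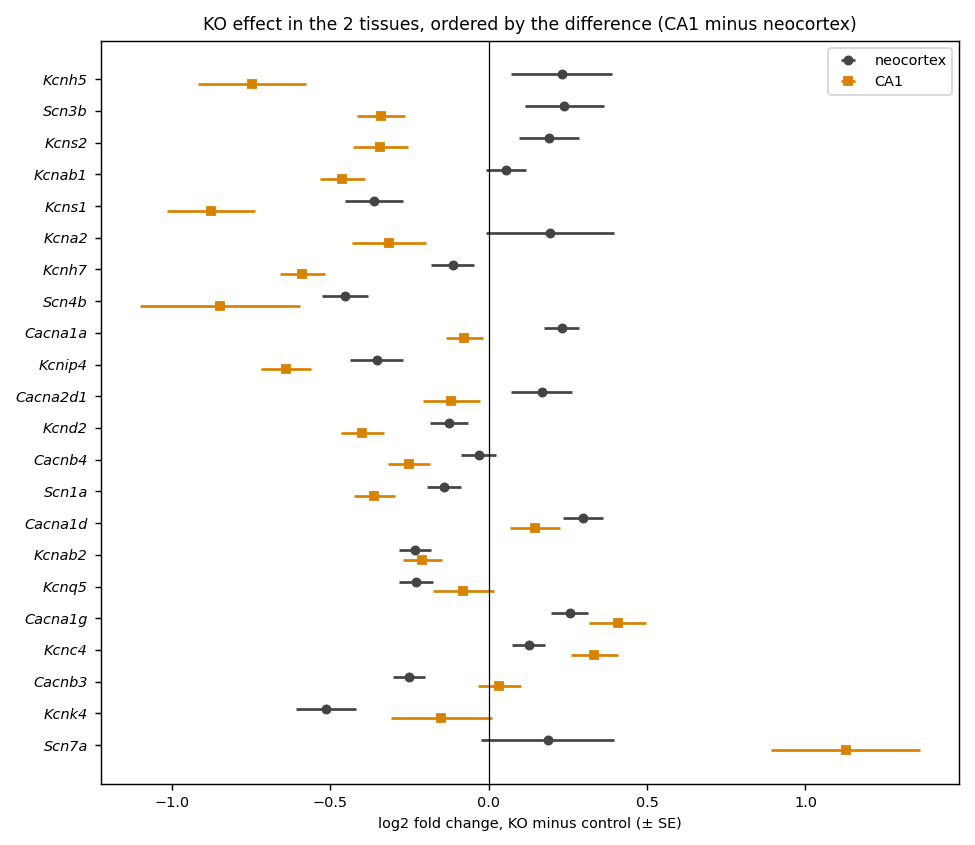
KO effect in the neocortex (circles) and the CA1 (squares) for channel genes that passed in a tissue or in the blocked interaction and are reported here, ordered by the difference CA1 minus neocortex. The axis is log2 fold change, KO minus control, with SEs as bars. Kcnh5 is at 0.23 and -0.75 at the top and Scn7a at 0.19 and 1.13 at the bottom.

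The miRNA matches were counted over all 105 genes, each of which had an annotated 3′ UTR (median of the longest per gene, 2073 bases, against 1250 bases for expressed neocortex genes). Of 32 planned miRNA families, 31 were searched, and miR-124, a main miRNA of neurons, was not analysed here. Matches to the 8-base site on the sense strand were found in 81 of the 105 genes (77.1%), against 62.2% of expressed neocortex genes. Per kilobase of 3′ UTR there were 0.939 sites in the channel genes and 0.902 in expressed neocortex genes. The 3 genes that rose in the neocortex and the 3 that rose in the CA1 each held at least 1 site. Of those that fell, 5 of 6 in the neocortex and 8 of 11 in the CA1 did, and Kcnab1, Kcnab2, Kcnh5 and Kcns1 held none of the sites of the 31 families. In the neocortex the median log2 fold change was 0.05 for channel genes with a site and -0.007 for those without, beside 0.02 and -0.03 for expressed genes. In the CA1 it was -0.06 and -0.05, beside -0.007 and 0.002.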

How the data were processed

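The deposited table holds whole-number counts of reads per Ensembl gene for 11 libraries, with no normalization by the authors. The tools named in the submitters' processing notes are GSNAP, bedtools, SAMtools and FastQC, with GRCm38 as the build. Tool versions, the counting rule and its strand setting are not given in the sources used here. Per the labels' protocols, neocortex libraries were stranded with ERCC RNAs and CA1 libraries unstranded.

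Symbols, positions, exon lengths (union of exons) and 3′ UTRs came from GENCODE M21, which named 96.6% of the 39017 identifiers. The 92 ERCC rows were kept out of library sizes. CPM values use TMM-scaled library sizes. KO and control were compared within each tissue in edgeR 4.0.16 (R 4.3.3; filterByExpr, robust quasi-likelihood F-test, two-sided), with Benjamini-Hochberg adjustment over all genes and a threshold of 0.05. The SE is the log2 fold change divided by the square root of F. The interaction used 4 group means. "Rose" and "fell" are used of genes past the threshold. "Expressed" means a mean of at least 1 CPM.

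The channel genes, families, marker lists, partner list and alternatives were chosen with earlier results of these data known. Genes named are those past a threshold, the highest per kb in each family, those at the edge of the level, those apart in both tissues and partner genes past the threshold. Others were named after their values were seen. Some genes that these rules name are not reported here, though they remain in the counts. Alternatives were DESeq2 1.42.0, RLE scaling, no filter, leaving out each library, spike-in set and animal block.

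The labels name the same animal for both tissues of 4 animals. Deviations from group means correlated across tissues within an animal with r of 0.160, 0.159, 0.206 and 0.245. No 2 libraries of a group were copies: chi-square per degree of freedom was 9.99 to 22.1.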

Additional observations from a re-analysis of the deposited data

Results flagged for a closer look

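The KO effect differed between the tissues for 5 channel genes when animal was fitted as a block (CA1 minus neocortex, edgeR log2 difference). Library kit went with tissue, so kit and tissue cannot be told apart in this difference. The values were -1.15 for Kcnh5, -0.76 for Kcna2, -0.52 for Kcnh7, -0.51 for Kcnab1 and -0.48 for Cacna2d1. The block leaves 2 residual degrees of freedom, and without the block the values were -0.98, -0.51, -0.47, -0.52 and -0.28 in the same order and none of the 5 passed. With the block but without neocortex control D5134, which leaves 1 residual degree of freedom, none of the 5 passed either. Their adjusted p-values in that fit were 0.0576 to 0.167 in edgeR. Over the fits run for the interaction, Kcnab1 had an adjusted p between 0.000156 and 0.149, and Kcna2 between 0.0173 and 0.833.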

How the results depend on the processing

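In the neocortex, 3 genes rose and 6 fell. The counts were 5 and 9 with DESeq2, 5 and 8 with no filter on low counts and 0 and 2 with the spike-in set as a term. Leaving out 1 library gave 0 to 7 that rose and 0 to 6 that fell. In the CA1, 3 rose and 11 fell. No filter gave 4 and 19, DESeq2 4 and 13, and leaving out 1 library gave 0 to 4 and 6 to 12. In the interaction 0 genes passed. With animal as a replicate block 5 did, with RLE scaling 1, with no filter 7 and with DESeq2 7, and leaving out 1 library gave 0 to 2. The block without neocortex control D5134, chosen after seeing the data, gave 1. The cause was not tested. Apart from the blocked fits, the shares of all genes that passed in these alternative fits are not given here. These counts therefore do not show how the channel genes compare with all genes in those fits. RLE scaling gave the same counts within each tissue. Each gene that passed in a tissue kept its direction in every fit run for that tissue. The groups of each such gene did not overlap there, which fixes the direction when a library is left out, so the kept direction is no check. With 1 library left in a group, the lone library is assumed to vary like the others. Genes at 10 CPM or less had a median SE of 0.21 in the neocortex and 0.20 in the CA1, against 0.07 and 0.08 above that level.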
